A study of Homo sapiens with 9 samples.

Results

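The comparison described here set 3 libraries of the first hairpin, sh1-HUMT, against 3 libraries labelled shNC, which is 6 of the 9 RNA sequencing libraries of the series. It covered every gene that passed a filter on low counts, 18540 of the 27059 genes in the deposited table. The genes that passed the test for the first hairpin, but not in the same direction for the second (sh2-HUMT, 3 libraries), are described in most detail. All cells were PC9/GR by their labels, a human lung adenocarcinoma line resistant to gefitinib, which inhibits the EGF receptor, grown in medium with fetal bovine serum. By their labels the groups differed in the short hairpin RNA: sh1-HUMT and sh2-HUMT each carried a hairpin designed against the long noncoding RNA HUMT, and shNC carried a control hairpin. In the titles of 5 of the 6 hairpin libraries, all but sh1-HUMT replicate 1, the target is spelled HUNT, which was read as HUMT. Headers in the count table instead give A549, also from lung adenocarcinoma, and "Si" arms; the cell line stated here is that of the labels. The labels do not say whether the 3 libraries of a group are separate cultures. The p-values therefore reflect the spread among these samples and no more, and that spread may be technical.

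Library totals ran from 21891060 to 22159921 estimated counts. Within groups the common biological coefficient of variation was 7.02%. Levels are CPM, which are counts scaled to a common library size after normalization, and differences are on the log2 scale with standard errors (SE). The target was not lowered: LINC00857, for which HUMT is a listed synonym, had 9.17, 9.58 and 10.1 CPM in the libraries labelled sh1-HUMT, against 9.36, 9.85 and 8.51 CPM in shNC libraries. The 2 groups overlapped, with a difference of 0.06 (95% interval -0.14 to 0.25, edgeR adjusted p = 0.685). The differences below are therefore between groups as labelled, with no measured loss of the target.

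Some of the genes described below belong to the heat shock and amino acid responses. In the heat shock response, the transcription factor HSF1 binds repeats of a short element upstream of chaperone genes. These include genes of the HSP70 family, whose products help damaged proteins refold. In the integrated stress response, phosphorylation of the initiation factor eIF2alpha raises translation of the transcription factor ATF4, which with C/EBP partners drives genes of amino acid synthesis, amino acid uptake and the charging of tRNAs.

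Of the genes tested, 31.9% differed between sh1-HUMT and shNC libraries by edgeR's quasi-likelihood test at a Benjamini-Hochberg adjusted p under 0.05 (15.7% higher and 16.3% lower), and 44.3% had libraries that did not overlap between these groups. Of the 5923 genes called, 4654 were also called in the same direction for sh2-HUMT against shNC, and 1269 were not, which is 21.4% of the calls and 6.84% of all genes tested. Both comparisons use the same shNC libraries. Among the genes not shared, 626 were higher and 643 lower in sh1-HUMT libraries, and 1185 (93.4%) had libraries that did not overlap those of shNC. Without sh1-HUMT replicate 1 the count of calls not shared was 792, and without sh1-HUMT replicate 3 it was 840. Only 605 and 629 of the 1269 were among these.

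The calls not shared were smaller and lay in less abundant genes than the shared ones. Their median change was 1.17-fold in sh1-HUMT libraries and 1.09-fold in the same direction in sh2-HUMT libraries. The shared calls had medians of 1.23-fold and 1.24-fold. Both sets were defined by the presence or lack of a sh2-HUMT call, so these sh2-HUMT medians follow in part from that selection. Median levels were 27.7 CPM for calls not shared and 40.6 CPM for shared calls, beside 15.8 CPM over all genes tested. For 530 of the 1269 genes the sh2-HUMT difference had the same direction and an unadjusted p under 0.05. At least 2-fold changes were found in 94 of the 1269 (7.41%), 34 higher and 60 lower, beside 267 (5.74%) of the shared calls. Genes both called and changed at least 2-fold made up 1.95% of all genes tested. Of the 94, 5 averaged at least 5 CPM.

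**Figure D1:**
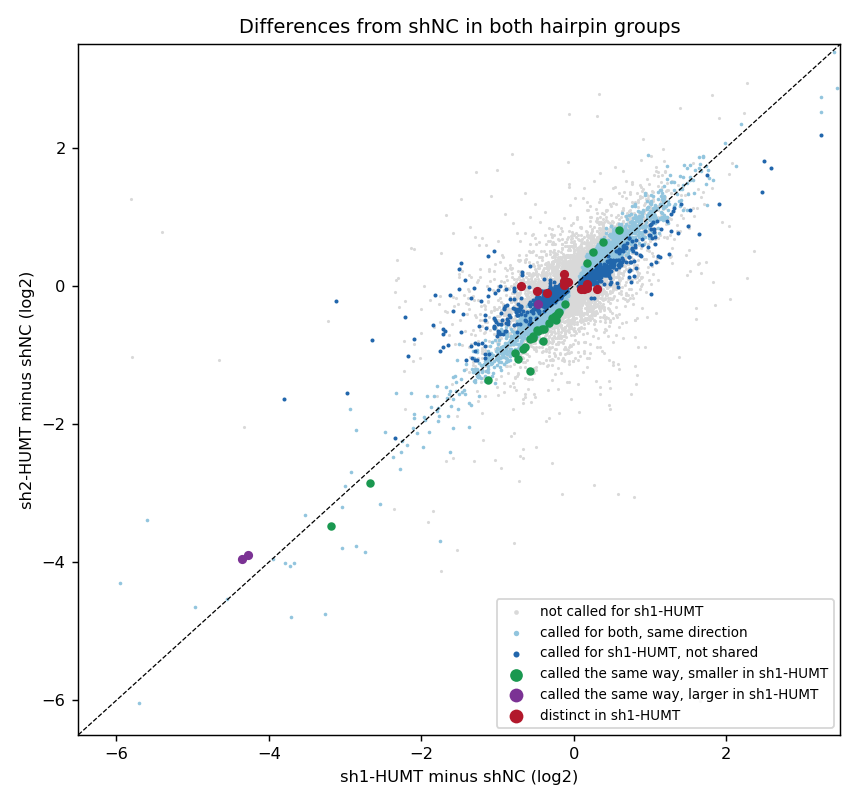
Differences from shNC for each gene tested, sh1-HUMT on one axis and sh2-HUMT on the other (log2), with genes grouped by which comparison called them and by the direct test between hairpins. The calls not shared, selected for the lack of a sh2-HUMT call, had medians of 1.17-fold for sh1-HUMT and 1.09-fold for sh2-HUMT. The 33 genes outside the axes from -6.5 to 3.5 are not drawn.

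A call in one comparison and not in the other does not show a difference, so sh1-HUMT and sh2-HUMT libraries were also compared directly. In that comparison edgeR called 53 genes, 0.286% of those tested, with 33 (0.178%) higher and 20 (0.108%) lower in sh1-HUMT libraries. At an unadjusted p under 0.05 there were 2187 genes (11.8%). The 53 fell into 14 distinct genes, where sh1-HUMT libraries differed from both other groups and the sh2-HUMT call was missing or opposite, 31 shared calls of unequal size and 8 genes that were called for sh2-HUMT but not for sh1-HUMT against shNC. For 1255 genes that were not shared and not distinct, the 95% interval of the difference between hairpins lay within 1.5-fold for 1042 (83.0%) and within 1.2-fold for 671. Both bounds exceed the median sh1-HUMT change of the calls not shared (1.17-fold), so these counts do not show that the hairpin groups agree. The interval reached past 1.5-fold or was not usable for 213, for which a difference of that size could be neither shown nor set aside. The 53 calls depended on single libraries: the count was 16, 155 and 27 without sh1-HUMT replicate 1, 2 or 3, 1, 6 and 9 without sh2-HUMT replicate 1, 2 or 3, and 24 without shNC replicate 1.

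The distinct genes were selected by tests on these same libraries, so their separation from both other groups was selected for. Among the 14 distinct genes (0.0755% of those tested), 5 were higher in sh1-HUMT libraries. BAZ1B, a chromatin remodelling factor and kinase, had 155, 148 and 155 CPM in sh1-HUMT libraries, 136, 138 and 137 CPM in sh2-HUMT libraries and 134, 135 and 135 CPM in shNC libraries. No sh1-HUMT library overlapped either other group. BAZ1B rose by 0.18 ± 0.03 (SE) against shNC (edgeR adjusted p = 2.8e-04) and by 0.16 against sh2-HUMT (95% interval 0.10 to 0.22, adjusted p = 0.0416). TRIP12, a ubiquitin ligase, rose by 0.10 against shNC and 0.14 against sh2-HUMT. The widest difference among these genes was that of LOC105371074, an uncharacterised locus, with 86.9, 85.0 and 87.8 CPM in sh1-HUMT libraries, 68.6, 69.5 and 63.7 CPM in sh2-HUMT libraries and 71.1, 73.8 and 64.6 CPM in shNC libraries. It rose by 0.31 against shNC (adjusted p = 5.4e-04) and 0.36 against sh2-HUMT (95% interval 0.26 to 0.47, adjusted p = 0.0108).

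The distinct genes that were lower in sh1-HUMT libraries were led in size, among those above 5 CPM, by USP7, a deubiquitinase. It had 31.7, 30.7 and 25.0 CPM in sh1-HUMT libraries, 46.4, 46.1 and 47.8 CPM in sh2-HUMT libraries and 48.2, 40.8 and 52.4 CPM in shNC libraries. Every sh1-HUMT library lay below all 6 others, and the shNC libraries spread the most. USP7 fell by 0.69 ± 0.10 (SE) against shNC (edgeR adjusted p = 9.7e-04) and by 0.68 against sh2-HUMT (95% interval -0.92 to -0.44, adjusted p = 0.0486). SLCO4A1, an organic anion transporter, had 25.2, 25.9 and 24.5 CPM in sh1-HUMT libraries, 29.6, 30.2 and 30.4 CPM in sh2-HUMT libraries and 33.0, 32.1 and 31.4 CPM in shNC libraries. All 3 groups were apart, with sh1-HUMT lowest, and the sh2-HUMT difference from shNC (-0.10, adjusted p = 0.106) did not pass the test. Smaller falls against shNC and sh2-HUMT were those of RBPMS, an RNA-binding protein (-0.13 and -0.15), of C3, the central complement component (-0.08 and -0.14), and of NPY4R2, a neuropeptide Y receptor (-0.13 and -0.20). NPY4R2 has a near-identical copy, so the split of its reads is uncertain. KIFC2, a kinesin, fell by 0.13 against shNC and by 0.30 against sh2-HUMT (95% interval -0.39 to -0.22, adjusted p = 0.00950), and its call for sh2-HUMT against shNC ran the other way.

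The remaining distinct entries have no named function. BGIG9606_68866, an entry known only by its provider identifier, had 110, 100 and 122 CPM in sh1-HUMT libraries, 152, 150 and 139 CPM in sh2-HUMT libraries and 154, 158 and 150 CPM in shNC libraries, a fall of 0.48 against shNC. LOC100996447 and BGIG9606_68069 had no counts in any sh1-HUMT library. LOC100996447 summed to 59 counts over the sh2-HUMT libraries and 62 over the shNC libraries. With a floor of 3 counts over the sh1-HUMT group, its shNC sum was 20.7-fold that floor. BGIG9606_68069 summed to 44 and 56 counts in the sh2-HUMT and shNC groups, and its shNC sum was 18.7-fold the same floor. The floor covers counting error in sh1-HUMT libraries only. Counting error in shNC libraries is left out, and the sums were not scaled to library size.

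The direct differences of the distinct genes rested on most single libraries. Leaving out sh2-HUMT replicate 1, 2 or 3 lost the call between hairpins for 14 of 14 genes, at adjusted p up to 0.226, 0.208 and 0.175. The count of calls lost was 12, 3 and 10 without sh1-HUMT replicate 1, 2 or 3 and 10, 6 and 8 without shNC replicate 1, 2 or 3. Counted anew, the number of distinct genes was 4, 47 and 6 without sh1-HUMT replicate 1, 2 or 3, it was 0, 0 and 1 without sh2-HUMT replicate 1, 2 or 3, and it was 3, 8 and 7 without shNC replicate 1, 2 or 3. The call against shNC was lost for C3 without sh1-HUMT replicate 1 (adjusted p = 0.0891) or 2 (0.0630), sh2-HUMT replicate 2 (0.0554) or shNC replicate 1 (0.129) or 3 (0.107), and for NPY4R2 without shNC replicate 2 (0.0524). KIFC2 lost that call without sh1-HUMT replicate 2 (adjusted p = 0.0525) or 3 (0.0750) or shNC replicate 1 (0.0799) or 2 (0.0590).

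**Figure D2:**
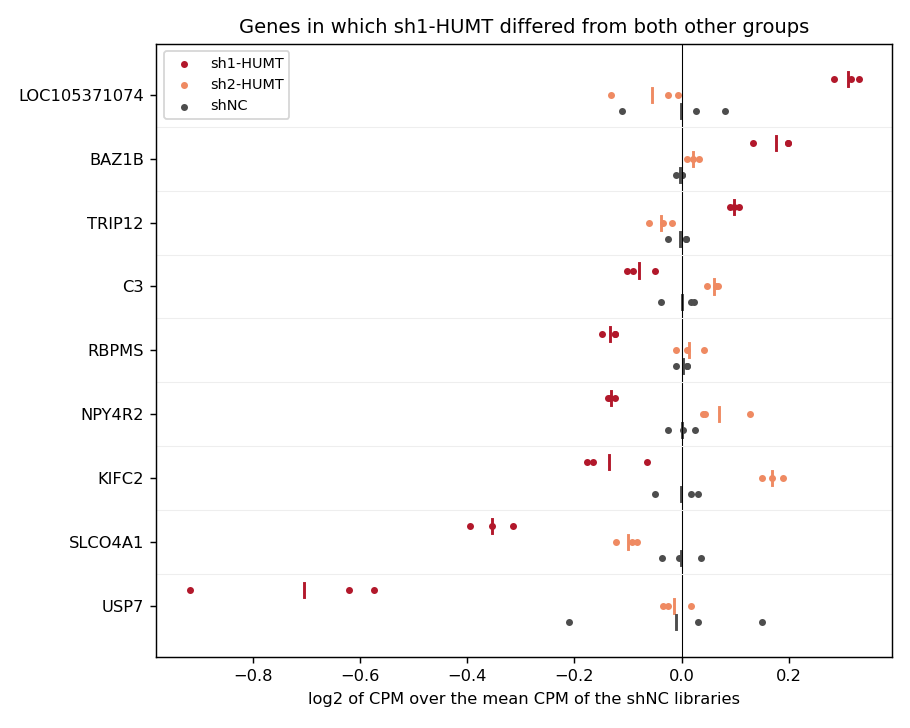
Log2 of CPM over the mean CPM of the shNC libraries (horizontal axis) for 9 distinct genes with a symbol and a mean of at least 5 CPM, with 1 point a library and a vertical tick at each group's mean. In each row the 3 sh1-HUMT points stand clear of the sh2-HUMT and shNC points, farthest in USP7. The genes were picked as distinct in these same libraries, so this separation was selected for.

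Among shared calls, HSPA1A and HSPA1B had the widest falls in sh1-HUMT beyond those in sh2-HUMT libraries, and both promoters hold the letters of a heat shock element. The windows below show it in HSPA1A (GRCh38.p14, chr6:31815401-31815480, plus strand) and HSPA1B (chr6:31827597-31827676, plus strand), each 80 bases from the RefSeq promoters, 5′ to 3′. Capitals mark the match to GAANNTTC, the same on both strands, which starts 106 and 105 bases before the start site.
HSPA1A: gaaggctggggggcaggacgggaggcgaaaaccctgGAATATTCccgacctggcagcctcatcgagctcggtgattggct
HSPA1B: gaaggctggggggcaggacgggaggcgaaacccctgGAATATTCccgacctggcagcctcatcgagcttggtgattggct
The element occurs in 6.87% of the 13228 promoters found for tested genes, each covering 250 bases before to 50 after a start. A match is a description of the letters in this window and shows no binding.

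Only 3 shared calls were larger in sh1-HUMT libraries, and a pair of them encode inducible HSP70 chaperones. HSPA1A had 60.6, 55.4 and 57.7 CPM in sh1-HUMT libraries, 74.5, 76.0 and 74.1 CPM in sh2-HUMT libraries and 1118, 1124 and 1120 CPM in shNC libraries. The groups did not overlap, and sh1-HUMT libraries were lowest. Its difference from shNC was -4.27 in sh1-HUMT and -3.90 in sh2-HUMT libraries, and the difference between hairpins was -0.37 (95% interval -0.44 to -0.30, edgeR adjusted p = 0.00232). This difference between hairpins passed the test in the 17 alternatives it was put through, those without each library in turn included (adjusted p 1.6e-19 to 0.0303); a minimum fold of 2 was not among them. HSPA1B had 44.1, 50.6 and 42.2 CPM in sh1-HUMT libraries, 59.3, 58.3 and 61.6 CPM in sh2-HUMT libraries and 944, 924 and 915 CPM in shNC libraries, with a difference between hairpins of -0.39 (adjusted p = 0.0213). That call was lost without sh1-HUMT replicate 1 (adjusted p = 0.126), sh2-HUMT replicate 1 (0.113), 2 (0.0818) or 3 (0.121) and shNC replicate 1 (0.0542). Because HSPA1A and HSPA1B are nearly the same sequence, their individual counts are uncertain. LAMB3, the beta chain of the basement membrane protein laminin, had 48.7, 48.6 and 49.7 CPM in sh1-HUMT libraries, 55.2, 57.6 and 56.5 CPM in sh2-HUMT libraries and 68.7, 66.8 and 68.3 CPM in shNC libraries. It stood in 3 separate steps, with a difference between hairpins of -0.20 (adjusted p = 0.0434), lost without sh1-HUMT replicate 1 (0.152) or 3 (0.0957), sh2-HUMT replicate 1 (0.119), 2 (0.159) or 3 (0.145) and shNC replicate 1 (0.0830) or 3 (0.0651).

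In edgeR no difference between hairpins was called for the other chaperone genes, while DESeq2 called 1 of them higher in sh1-HUMT than in sh2-HUMT libraries. Of 20 heat shock chaperones, 19 were lower in sh1-HUMT and 18 in sh2-HUMT libraries against shNC, beside 16.3% and 16.5% of all genes tested, with list medians of -1.07 and -0.88. DNAJB1, an HSP40 co-chaperone, had a difference between hairpins of -0.10 (95% interval -0.17 to -0.04, edgeR adjusted p = 0.195). CRYAB, a small heat shock protein named because its call was not shared, averaged 0.402 ± 0.00198 CPM in sh1-HUMT libraries, 0.703 ± 0.289 CPM in sh2-HUMT libraries and 1.28 ± 0.314 CPM in shNC libraries (SD, n = 3 each). The sh1-HUMT libraries were lowest and sh2-HUMT libraries overlapped shNC, but the difference between hairpins (-0.80, adjusted p = 0.458) did not pass the test at these low counts.

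Sequences follow for 5 of the genes whose fall was smaller in sh1-HUMT than in sh2-HUMT libraries, because their promoters hold the C/EBP-ATF letters TGATGCAA, searched on both strands. Each window is 80 bases of a RefSeq promoter (GRCh38.p14), 5′ to 3′ on the gene's strand, and capitals mark the match, which in AARS, IARS, MARS and TARS reads as the reverse complement TTGCATCA. The windows are chr16:70289650-70289729 (minus strand) for AARS, chr12:24949106-24949185 (minus) for BCAT1, chr9:92293667-92293746 (minus) for IARS, chr12:57488028-57488107 (plus) for MARS and chr5:33440931-33441010 (plus) for TARS. RefSeq lists the synthetases under the symbols AARS1, IARS1, MARS1 and TARS1.
AARS: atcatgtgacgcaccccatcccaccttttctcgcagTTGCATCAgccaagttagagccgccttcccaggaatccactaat
BCAT1: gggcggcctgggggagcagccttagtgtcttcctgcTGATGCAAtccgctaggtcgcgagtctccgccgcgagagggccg
IARS: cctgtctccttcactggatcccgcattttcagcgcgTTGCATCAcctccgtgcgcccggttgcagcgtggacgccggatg
MARS: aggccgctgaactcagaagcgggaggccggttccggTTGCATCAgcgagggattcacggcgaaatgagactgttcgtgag
TARS: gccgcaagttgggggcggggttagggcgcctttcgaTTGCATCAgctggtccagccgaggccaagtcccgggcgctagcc
Among the 24 genes with a smaller fall, 22 had a promoter found, and 5 of these (22.7%) held these letters in at least 1 listed promoter. The share was 0.801% of the 13228 tested genes with a promoter. The heat shock element GAANNTTC was found in 5 (22.7%, against 6.87% of all), the E-box CACGTG in 4 (18.2%, against 11.8%), the cAMP response element TGACGTCA in 1 (4.55%, against 3.34%) and the AP-1 letters TGANTCA in 0 (against 7.57%). The 24 genes come from the shared lower calls, 1900 of which had a promoter found. Of these, 31 (1.63%) held TGATGCAA, 7.21% GAANNTTC, 14.4% CACGTG, 5.37% TGACGTCA and 7.58% TGANTCA. Promoters were found for 71.3% of tested genes, which limits all of these shares. No share was tested.

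By the direct test 28 shared calls were smaller in sh1-HUMT than in sh2-HUMT libraries, 24 of them lower and 4 higher than shNC. They include genes of amino acid synthesis, amino acid uptake and tRNA charging. Among enzymes, BCAT1, which transfers amino groups to and from branched-chain amino acids, averaged 13.2 ± 0.911 CPM in sh1-HUMT libraries, 8.36 ± 0.354 CPM in sh2-HUMT libraries and 19.7 ± 1.45 CPM in shNC libraries (SD, n = 3 each). The sh1-HUMT libraries stood between the other groups without overlap. BCAT1 differed from shNC by -0.57 in sh1-HUMT and -1.24 in sh2-HUMT libraries, a difference between hairpins of 0.66 (95% interval 0.48 to 0.85, edgeR adjusted p = 0.00950). PSAT1, an enzyme of serine synthesis, had 168, 177 and 179 CPM in sh1-HUMT libraries, 148, 145 and 151 CPM in sh2-HUMT libraries and 276, 276 and 280 CPM in shNC libraries. It showed the same order, with a difference between hairpins of 0.24 (adjusted p = 0.00930). ASNS, the asparagine synthetase, had 97.6, 95.5 and 94.2 CPM in sh1-HUMT libraries, 80.2, 70.3 and 78.7 CPM in sh2-HUMT libraries and 166, 163 and 147 CPM in shNC libraries, with differences from shNC of -0.73 and -1.06. The mitochondrial folate enzyme MTHFD2 fell by 0.57 in sh1-HUMT and by 0.77 in sh2-HUMT libraries.

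The 3 amino acid transporters among the 28 had the same order, which is what the direct test selected. SLC7A1, a cationic amino acid transporter, had 99.5, 98.4 and 98.8 CPM in sh1-HUMT libraries, 82.4, 80.2 and 85.7 CPM in sh2-HUMT libraries and 115, 117 and 117 CPM in shNC libraries. It fell by 0.23 in sh1-HUMT and by 0.49 in sh2-HUMT libraries, with a difference between hairpins of 0.26 (edgeR adjusted p = 0.00930). SLC7A5, the large neutral amino acid transporter, fell by 0.21 and 0.40 against shNC in sh1-HUMT and sh2-HUMT libraries, and SLC7A11, the cystine importer, by 0.22 and 0.43. The synthetases with a called difference between hairpins were GARS, IARS, TARS, MARS, AARS, YARS and EPRS, which charge tRNAs with glycine, isoleucine, threonine, methionine, alanine, tyrosine, and glutamate and proline. GARS had 226, 224 and 228 CPM in sh1-HUMT libraries, 192, 190 and 195 CPM in sh2-HUMT libraries and 359, 344 and 355 CPM in shNC libraries, with a difference between hairpins of 0.23 (adjusted p = 0.00575). For the other 6 that difference was 0.17 to 0.22, and XPOT, which exports tRNAs from the nucleus, had 0.23.

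Further genes of this kind had other roles in stress and growth. FAM129A, a gene of the integrated stress response, fell by 0.40 in sh1-HUMT and by 0.80 in sh2-HUMT libraries, the widest gap after BCAT1. The pseudokinase TRIB3 (-1.13 and -1.37), PPP1R15A, a phosphatase subunit that acts on eIF2alpha (-2.67 and -2.86), the glycoprotein STC2 (-0.77 and -0.97) and the AP-1 subunit JUN (-3.18 and -3.48) also fell less in sh1-HUMT than in sh2-HUMT libraries. EREG, a ligand of the EGF receptor, differed from shNC by -0.53 and -0.72, SMAD2, a transducer of TGF-beta signals, by -0.29 and -0.46, the phosphatase PTP4A1 by -0.19 and -0.38, and the nucleolar helicase DDX21 by -0.11 and -0.27. Of the 4 genes with a smaller rise, FCGBP, a mucus protein, had 679, 644 and 666 CPM in sh1-HUMT libraries, 762, 747 and 806 CPM in sh2-HUMT libraries and 429, 430 and 459 CPM in shNC libraries. Its differences from shNC were 0.59 and 0.81. The others were ARHGAP33, a regulator of small GTPases (0.38 and 0.64), the glycosyltransferase B4GALNT4 (0.25 and 0.49) and the proton pump subunit TCIRG1 (0.18 and 0.33).

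Every one of the 28 genes kept its call against shNC without each library in turn, but the direct differences did not last. Without sh2-HUMT replicate 1 the difference between hairpins was lost for 28 of 28 (edgeR adjusted p 0.0521 to 0.226), without replicate 2 for 24 and without replicate 3 for 21. It was lost for 18, 3 and 14 without sh1-HUMT replicate 1, 2 or 3 and for 10, 4 and 6 without shNC replicate 1, 2 or 3. Counted anew, the shared calls smaller in sh1-HUMT libraries numbered 11 and 15 without sh1-HUMT replicate 1 or 3, they numbered 0, 4 and 7 without sh2-HUMT replicate 1, 2 or 3, and 18 without shNC replicate 1.

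**Figure D3:**
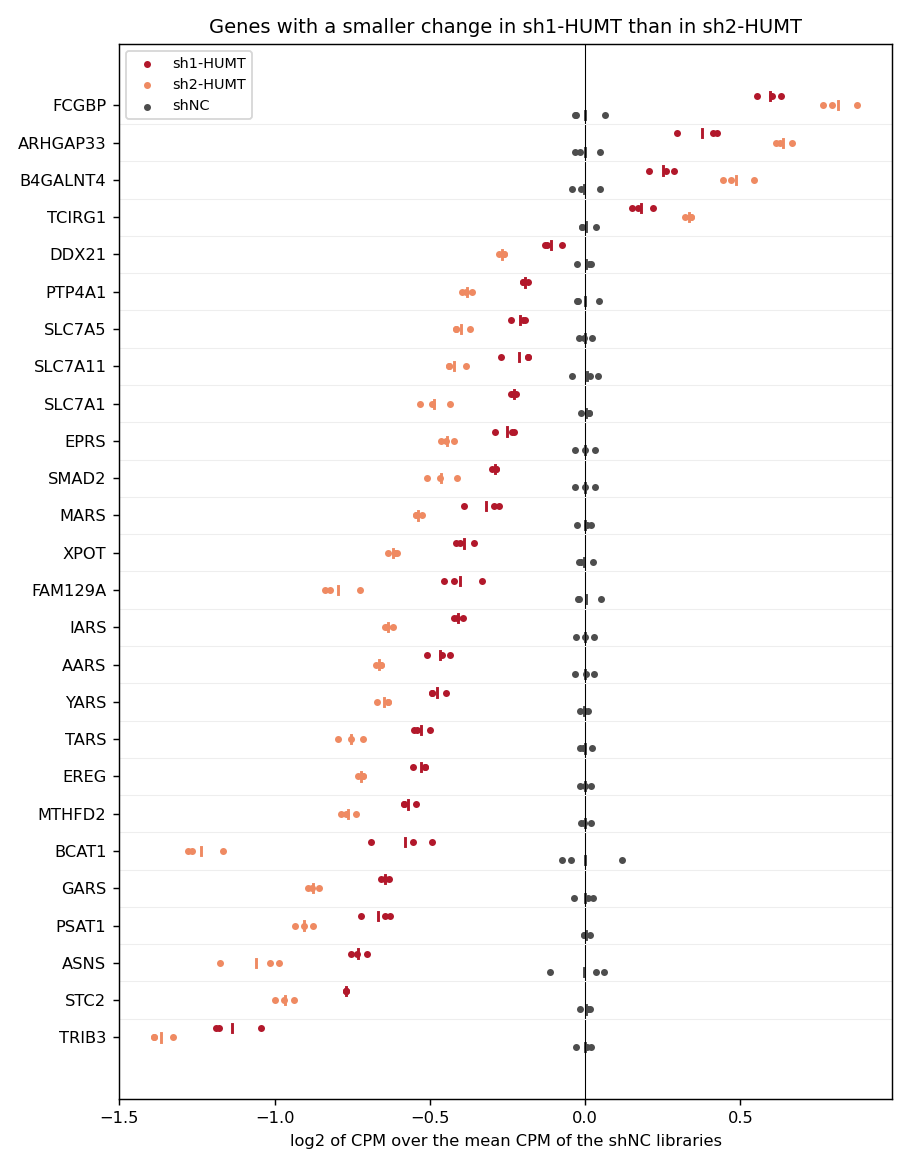
Log2 of CPM over the mean CPM of the shNC libraries (horizontal axis) for shared calls that were smaller in sh1-HUMT than in sh2-HUMT libraries, with 1 point a library and a vertical tick at each group's mean; JUN and PPP1R15A, with far lower values, are left out. In each row the sh1-HUMT points lie between the sh2-HUMT and shNC points, with the widest gap between hairpins in BCAT1. The genes were selected for that order in these same libraries.

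As a whole list, the ATF4 response had 21 of 23 members lower and 0 higher in sh1-HUMT libraries against shNC (16.3% and 15.7% of all genes), with a median of -0.56. In sh2-HUMT libraries 21 were lower, with a median of -0.72. For 9 members the direct test called sh1-HUMT above sh2-HUMT (0.178% of all genes), and 22 of 23 had a difference between hairpins above 0, beside 9116 of the 18540 genes tested. The 9 were ASNS, TRIB3, PSAT1, MTHFD2, SLC7A11, SLC7A5, SLC7A1, STC2 and PPP1R15A. The median of the list against shNC was -0.58, -0.50 and -0.54 in the sh1-HUMT libraries and -0.71, -0.66 and -0.64 in the sh2-HUMT libraries, so the groups did not overlap. The 9 calls were 0, 0 and 3 without sh2-HUMT replicate 1, 2 or 3 and 4 and 5 without sh1-HUMT replicate 1 or 3.

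Of 20 cytosolic aminoacyl-tRNA synthetases, 14 were lower and 1 higher in sh1-HUMT libraries (16.3% and 15.7% of all genes), with a median of -0.33. In sh2-HUMT libraries 16 were lower and 0 higher (16.5% and 15.9% of all genes), with a median of -0.50. The difference between hairpins was above 0 for 19 and called for 7, beside 0.178% of all genes. These 7 calls were 0, 3 and 2 without sh2-HUMT replicate 1, 2 or 3 and 3 and 4 without sh1-HUMT replicate 1 or 3. The member that rose was VARS, the valine enzyme, with 85.3, 78.9 and 84.1 CPM in sh1-HUMT libraries, 79.5, 79.0 and 77.7 CPM in sh2-HUMT libraries and 71.8, 75.8 and 73.5 CPM in shNC libraries. It rose by 0.17 against shNC (edgeR adjusted p = 0.00480) and overlapped sh2-HUMT, from which the difference (0.07, adjusted p = 0.490) did not pass the test.

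Ribosome biogenesis is the making of ribosomes in the nucleolus. Of its 26 members, 11 were lower and 1 higher in sh1-HUMT libraries (16.3% and 15.7% of all genes), with a median of -0.12. In sh2-HUMT libraries 19 were lower and 0 higher (16.5% and 15.9% of all genes), with a median of -0.21. The difference between hairpins was above 0 for 22 of 26 but called for 0 by edgeR and 5 by DESeq2. Over all genes, too, DESeq2 called more differences between hairpins than edgeR. NOP58, a protein of snoRNA particles that guide methylation of ribosomal RNA, had 62.7, 58.4 and 64.4 CPM in sh1-HUMT libraries, 54.6, 56.5 and 54.9 CPM in sh2-HUMT libraries and 109, 103 and 106 CPM in shNC libraries. Its difference between hairpins was 0.16 (adjusted p = 0.158). UTP4, a factor of the small subunit processome, differed from shNC by -0.30 and -0.49. POLR1A, the largest subunit of RNA polymerase I, was the member that rose in sh1-HUMT libraries (0.14, adjusted p = 0.00801, against 0.02 in sh2-HUMT libraries).

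In 8 genes sh1-HUMT libraries differed from sh2-HUMT libraries but not, by the test, from shNC. ADM2, a peptide hormone of the calcitonin family, had 5.70, 6.79 and 6.30 CPM in sh1-HUMT libraries, 3.01, 4.12 and 3.09 CPM in sh2-HUMT libraries and 6.12, 6.22 and 5.83 CPM in shNC libraries. The sh1-HUMT libraries overlapped shNC (0.05, edgeR adjusted p = 0.825) and lay above sh2-HUMT by 0.88 (95% interval 0.58 to 1.18, adjusted p = 0.0247). TMX2, a thioredoxin-like membrane protein (0.19), the transcription factor TCF12 (0.15) and SGPL1, which cleaves sphingosine phosphate (0.23), were likewise above sh2-HUMT. RHPN1 (-0.27), FBRSL1 (-0.21), the calcium-binding RCN3 (-0.45) and the readthrough entry RBM14-RBM4 (-0.81), which shares sequence with its parent genes, were below it. The difference was lost for at least 7 of the 8 without sh1-HUMT replicate 1 or 3, any sh2-HUMT replicate or shNC replicate 1 (adjusted p up to 0.196), for 2 without sh1-HUMT replicate 2 (0.0529 and 0.0622) or shNC replicate 2 (0.0632) and for 3 without shNC replicate 3 (0.0715 to 0.0814).

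Among cell cycle genes more rose than fell in sh1-HUMT libraries. Of 30 genes of mitosis and G2/M, 18 were higher and 1, UBE2C, lower than in shNC, with a median of 0.12. In sh2-HUMT libraries 14 were higher and 1 lower, beside 15.9% and 16.5% of all genes, with a median of 0.11. MKI67, a marker of cycling cells, had 361, 339 and 361 CPM in sh1-HUMT libraries, 345, 345 and 342 CPM in sh2-HUMT libraries and 268, 247 and 271 CPM in shNC libraries. Both hairpin groups lay above shNC and overlapped each other, and MKI67 rose by 0.43 ± 0.04 (SE) in sh1-HUMT libraries (edgeR adjusted p = 3.2e-06). BUB1, a spindle checkpoint kinase, rose by 0.39 and TOP2A, a DNA topoisomerase, by 0.25. The 5 mitotic calls not shared were CCNA2 (0.19), AURKA (0.15), KIF23 (0.11), TPX2 (0.11) and FOXM1 (0.15), the last a transcription factor of mitotic genes. FOXM1 had 111, 115 and 114 CPM in sh1-HUMT libraries, 107, 106 and 108 CPM in sh2-HUMT libraries and 103, 98.4 and 104 CPM in shNC libraries, without overlap between any groups. Its difference between hairpins (0.08, adjusted p = 0.307) did not pass the test. Against shNC, CCNA2 lost its call without sh1-HUMT replicate 1 (adjusted p = 0.0741) or 2 (0.153), sh2-HUMT replicate 3 (0.0620) or shNC replicate 2 (0.0875) or 3 (0.148), and KIF23 without sh1-HUMT replicate 3 (0.0888) or shNC replicate 3 (0.0706).

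Of 30 genes of the G1/S transition and DNA replication, 11 were higher and 0 lower in sh1-HUMT libraries (15.7% and 16.3% of all genes). In sh2-HUMT libraries 9 were higher and 1 lower (15.9% and 16.5% of all genes). The list medians were 0.10 in sh1-HUMT and 0.06 in sh2-HUMT libraries. MCM4, a subunit of the replicative helicase, rose by 0.33. The calls not shared were MCM2 (0.16), MCM5 (0.16), RRM1, a ribonucleotide reductase subunit (0.12), and E2F2 (0.29). Each of these 4 was lost without 1 or more single libraries, with adjusted p up to 0.0965, 0.0954 and 0.0966 without sh1-HUMT replicate 1, 2 or 3 and up to 0.115 without a shNC replicate. The count of higher members was 7 without sh1-HUMT replicate 1. DNA repair genes had 14 of 28 higher and 1, ERCC1, lower in sh1-HUMT libraries, with a median of 0.11, against 9 higher and 2 lower in sh2-HUMT libraries, with a median of 0.08. XPC, a sensor of DNA lesions, had 98.7, 100 and 102 CPM in sh1-HUMT libraries, 95.5, 91.0 and 89.4 CPM in sh2-HUMT libraries and 86.3, 83.2 and 84.0 CPM in shNC libraries. The 3 groups did not overlap, yet the difference between hairpins (0.13, adjusted p = 0.152) did not pass the test. Repair calls not shared included BRCA1 (0.13), BRCA2 (0.27), FANCI (0.15), BLM (0.17) and XRCC5 (0.11). XRCC5, the Ku80 subunit that binds DNA ends, had 356, 355 and 348 CPM in sh1-HUMT libraries, 325, 331 and 331 CPM in sh2-HUMT libraries and 335, 322 and 326 CPM in shNC libraries. Its sh1-HUMT libraries lay above all others, with a difference between hairpins of 0.10 (adjusted p = 0.124). Without sh1-HUMT replicate 1 the list had 9 members higher. BRCA1, BRCA2 and BLM lost their calls without sh1-HUMT replicate 1 (adjusted p 0.0569 to 0.110) or shNC replicate 2 (0.0528 to 0.148), and also without sh1-HUMT replicate 3 (0.116 to 0.157), sh2-HUMT replicate 1 (0.0519 to 0.0645) or shNC replicate 3 (0.0633 to 0.108). BRCA1 and BLM were also lost without shNC replicate 1 (0.0721 and 0.0770), and BRCA2 without sh2-HUMT replicate 2 (0.0524) or 3 (0.0531).

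Some genes of growth arrest and cell death are given singly. MDM2, a ubiquitin ligase, had 82.1, 77.0 and 66.1 CPM in sh1-HUMT libraries, 57.8, 58.9 and 57.7 CPM in sh2-HUMT libraries and 57.3, 66.4 and 46.9 CPM in shNC libraries. The lowest sh1-HUMT library lay just below the highest shNC library, and the shNC libraries were widely spread. Its rise of 0.40 ± 0.13 (SE, edgeR adjusted p = 0.0445) was not shared, and its difference between hairpins was 0.37 (adjusted p = 0.309). The rise was lost without sh1-HUMT replicate 1 (adjusted p = 0.125) or 2 (0.118), sh2-HUMT replicate 1 (0.0695), 2 (0.0656) or 3 (0.0695) or shNC replicate 1 (0.102) or 3 (0.0518). SESN1, a stress-induced sestrin (0.40), and BBC3, a pro-apoptotic BH3 protein (-0.31), were also calls not shared. GDF15, a secreted stress cytokine, had 335, 361 and 326 CPM in sh1-HUMT libraries, 304, 290 and 304 CPM in sh2-HUMT libraries and 632, 636 and 599 CPM in shNC libraries. It fell by 0.87, with sh1-HUMT libraries between the other groups. CDKN1A, the cyclin-dependent kinase inhibitor p21, had 244, 267 and 251 CPM in sh1-HUMT libraries, against 255, 262 and 260 CPM in shNC libraries. These overlapped, with a difference of -0.03 (adjusted p = 0.540).

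Genes of the ribosome, respiration and protein breakdown were lower by small amounts, with a single library standing out. Of 34 cytosolic ribosomal proteins, 33 were lower in sh1-HUMT libraries and 28 in sh2-HUMT libraries (16.3% and 16.5% of all genes). Their medians were -0.21 and -0.18. Of 37 nuclear genes of oxidative phosphorylation, 23 were lower and 1 higher in sh1-HUMT libraries, against 15 lower and 1 higher in sh2-HUMT libraries, with medians of -0.17 and -0.14. The 8 calls not shared were NDUFA1, NDUFA2, NDUFA4, NDUFB5, UQCRFS1, COX5B, ATP5PB and ATP5MC3, subunits of respiratory complexes and ATP synthase. NDUFA2 had 31.1, 33.6 and 29.7 CPM in sh1-HUMT libraries, 35.0, 35.6 and 35.8 CPM in sh2-HUMT libraries and 36.1, 38.2 and 35.7 CPM in shNC libraries. The sh1-HUMT libraries were lowest, with a fall of 0.22 (edgeR adjusted p = 0.00578) and a difference between hairpins of -0.17 (adjusted p = 0.204). Proteasome subunits had 16 of 31 lower and 1 higher in sh1-HUMT libraries, against 15 lower and 1 higher in sh2-HUMT libraries, and the calls not shared were PSMA2, PSMA5, PSMB4, PSMB6, PSMB7 and PSMD4. In each of these 3 lists sh1-HUMT replicate 2 was nearest to shNC: the list medians against shNC in sh1-HUMT replicates 1, 2 and 3 were -0.24, -0.12 and -0.25 for ribosomal proteins, -0.21, -0.09 and -0.22 for oxidative phosphorylation and -0.15, -0.07 and -0.14 for proteasome subunits.

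These counts moved with single libraries. For oxidative phosphorylation the number lower was 14 and 13 without sh1-HUMT replicate 1 or 3 and 14 without shNC replicate 1. For the proteasome it was 9 and 8 without sh1-HUMT replicate 1 or 3 and 8, 9 and 9 without shNC replicate 1, 2 or 3. Of the respiratory calls not shared, 5 (NDUFA4, NDUFB5, UQCRFS1, COX5B and ATP5PB) were lost without sh1-HUMT replicate 1 or 3 or shNC replicate 2, and each of the 6 proteasome calls was lost without at least 1 library. Upper-quartile normalization left 10 proteasome genes lower, and so did dropping the filter on low counts. After GC content and transcript length were corrected, 15 respiratory, 5 proteasome and 21 ribosomal protein genes were lower. The part that base composition plays in these falls was not tested.

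The TGF-beta and NF-kB lists had more members lower than higher with both hairpins. Other signalling lists did not all do so: of 18 genes of the EGFR family and its ligands 5 were higher and 5 lower in sh1-HUMT libraries. Of 20 genes of the TGF-beta response, 13 were lower and 1, SMAD3, higher in sh1-HUMT libraries (16.3% and 15.7% of all genes), with a median of -0.38. In sh2-HUMT libraries 13 were lower and 3 higher (16.5% and 15.9% of all genes). PMEPA1, a target gene and a brake on the pathway, fell by 0.99. The ligand TGFB1 was a call not shared, with 351, 358 and 350 CPM in sh1-HUMT libraries, 381, 383 and 391 CPM in sh2-HUMT libraries and 374, 375 and 385 CPM in shNC libraries. The sh1-HUMT libraries were lower than all others, with a fall of 0.10 (edgeR adjusted p = 0.00755) and a difference between hairpins of -0.13 (adjusted p = 0.0614). Of 22 NF-kB feedback genes and chemokines, 13 were lower and 4 higher, led by the neutrophil chemokine CXCL8. It had 40.1, 40.9 and 37.3 CPM in sh1-HUMT libraries, 42.8, 42.4 and 42.2 CPM in sh2-HUMT libraries and 146, 148 and 138 CPM in shNC libraries, a fall of 1.87 in sh1-HUMT libraries. TNFAIP3, an inhibitor of NF-kB, fell by 0.99 and TNFAIP2 rose by 0.35. The inhibitors NFKBIE (-0.86) and NFKBIZ (-0.24) were calls not shared, both lost without sh1-HUMT replicate 1 (adjusted p = 0.0584 and 0.0563) or shNC replicate 3 (0.0648 and 0.0577).

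Splicing factors of the SR and hnRNP families had 17 of 26 lower and 0 higher in sh1-HUMT libraries (16.3% and 15.7% of all genes). In sh2-HUMT libraries 15 were lower and 1 higher (16.5% and 15.9% of all genes). The list medians were -0.16 in sh1-HUMT and -0.15 in sh2-HUMT libraries. CLK1, a kinase of SR proteins, had 48.8, 47.7 and 47.3 CPM in sh1-HUMT libraries, 52.5, 49.1 and 48.4 CPM in sh2-HUMT libraries and 99.6, 100 and 108 CPM in shNC libraries. Both hairpin groups lay far below shNC, and CLK1 fell by 1.10 (edgeR adjusted p = 4.0e-09). SRSF6 and SRSF3 fell by 0.72 and 0.53, and SRSF9 (-0.20) and HNRNPA0 (-0.13) were calls not shared. HNRNPA0 lost its call without every library but sh1-HUMT replicate 2 and shNC replicate 3 (adjusted p 0.0720 to 0.217). Actin cytoskeleton genes had 10 of 20 lower and 4 higher, with ACTB (-0.42) and ACTG1 (-0.43) lower and the myosin heavy chain MYH9 higher (0.25). Calls not shared there included TPM2 (-0.16), CNN3 (-0.20) and CFL1 (-0.15).

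**Figure D4:**
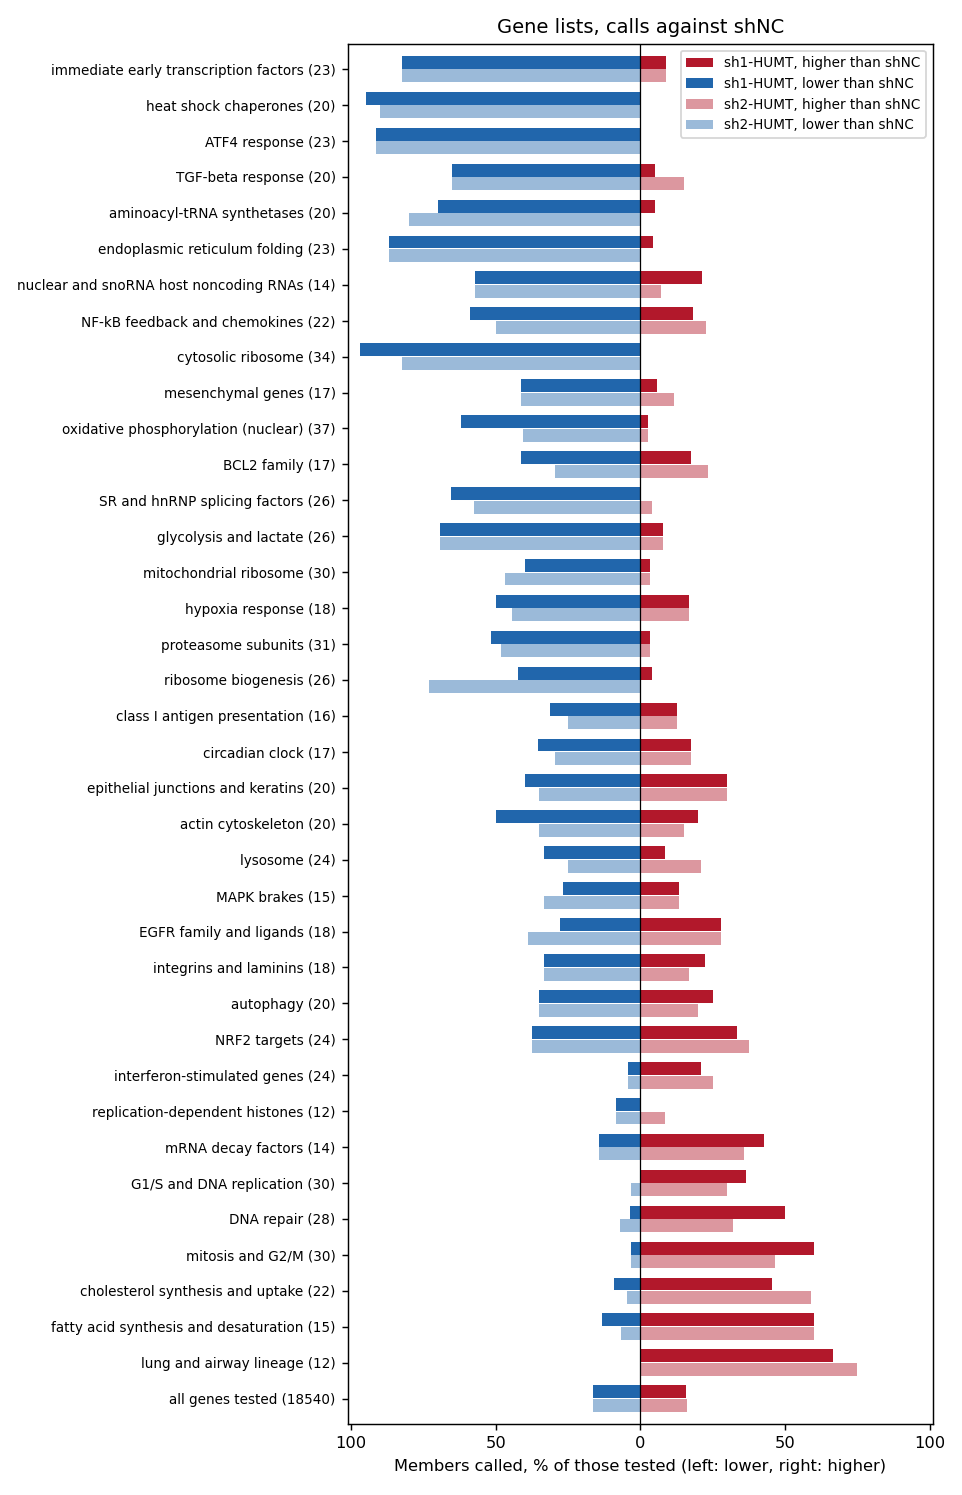
Share of tested members called against shNC for 37 gene lists and for all genes tested (last row), as percent of those tested, with bars to the left for lower and to the right for higher calls, dark for sh1-HUMT and pale for sh2-HUMT, and the number tested in brackets. In ribosome biogenesis 11 members were lower in sh1-HUMT and 19 in sh2-HUMT libraries, and in oxidative phosphorylation 23 and 15.

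Over all lists, 73 different genes were calls not shared by sh2-HUMT libraries, and for none of them did the test between hairpins pass in edgeR. Of these 73 calls, 46 were lost without at least 1 library. The count lost was 37, 14 and 33 without sh1-HUMT replicate 1, 2 or 3, with adjusted p up to 0.208, 0.153 and 0.157. It was 13, 12 and 11 without sh2-HUMT replicate 1, 2 or 3 (up to 0.0720, 0.0730 and 0.0746) and 29, 31 and 28 without shNC replicate 1, 2 or 3 (up to 0.186, 0.217 and 0.148).

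Some calls not shared with large changes and a mean of at least 5 CPM, picked out after their values were seen, were not separated from sh2-HUMT by the test. SNHG16, a host RNA of small nucleolar RNAs, had 7.30, 5.80 and 7.69 CPM in sh1-HUMT libraries, 5.25, 4.84 and 5.41 CPM in sh2-HUMT libraries and 2.59, 5.02 and 3.76 CPM in shNC libraries. The sh1-HUMT libraries were highest and did not overlap either group, with a rise of 0.87 ± 0.20 (SE, edgeR adjusted p = 0.00601) and a difference between hairpins of 0.42 (adjusted p = 0.426). USP46-AS1, an antisense RNA, had 6.86, 8.90 and 7.91 CPM in sh1-HUMT libraries, 5.70, 5.84 and 5.10 CPM in sh2-HUMT libraries and 4.19, 4.93 and 5.08 CPM in shNC libraries. Its sh1-HUMT libraries were highest, with a rise of 0.74 (adjusted p = 8.7e-04), and without strand-aware counting its reads cannot be told from those of USP46. PNRC1, a nuclear receptor coactivator, had 8.32, 12.9 and 5.81 CPM in sh1-HUMT libraries, 11.7, 18.1 and 18.5 CPM in sh2-HUMT libraries and 27.9, 35.3 and 26.1 CPM in shNC libraries. It fell by 1.72 ± 0.31 (SE, adjusted p = 0.00544), and sh2-HUMT libraries (-0.89, adjusted p = 0.0581) missed the threshold narrowly. HLA-B, a class I antigen presentation gene taken from a list and far below that level, had 0.312, 0.405 and 0.134 CPM in sh1-HUMT libraries, 0.538, 0.770 and 0.760 CPM in sh2-HUMT libraries and 0.753, 1.38 and 0.941 CPM in shNC libraries. Its fall of 1.84 (adjusted p = 0.00616) rests on low counts in a family of similar genes.

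Receptors tied to gefitinib and to resistance against it did not pass the test without a correction for GC and length. EGFR, the drug's target, had 256, 246 and 263 CPM in sh1-HUMT libraries, against 256, 249 and 266 CPM in shNC libraries (-0.01, edgeR adjusted p = 0.875). The receptor tyrosine kinases MET (-0.05, adjusted p = 0.148) and AXL (0.04, adjusted p = 0.273) did not pass the test either. After that correction EGFR (-0.12, adjusted p = 0.00230) and MET (-0.10, adjusted p = 0.00397) were called lower, and AXL was not called. The transcription factor FOXK1 had 106, 102 and 93.3 CPM in sh1-HUMT libraries, 90.8, 88.2 and 96.3 CPM in sh2-HUMT libraries and 70.4, 85.0 and 80.0 CPM in shNC libraries, a rise of 0.36 (adjusted p = 0.00387). CDH1, the epithelial cadherin, rose by 0.33, while 5 of the 8 epithelial and lung markers tested fell: KRT19 by 0.70, KRT7 by 0.55, EPCAM by 0.31, KRT18 by 0.26 and KRT8 by 0.21. The call of EPCAM was lost without any library but shNC replicate 2 (adjusted p 0.0513 to 0.146). Of 20 junction and keratin genes 6 were higher and 8 lower in sh1-HUMT libraries (15.7% and 16.3% of all genes). The mesenchymal intermediate filament VIM fell by 0.24. Fewer cells of a kind and less RNA per cell cannot be told apart in such bulk libraries.

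Markers of cell types other than epithelium were low, and the sum of the epithelial and lung markers was lower in both hairpin groups than in shNC libraries. Epithelial and lung markers summed to 4219 to 4503 CPM in sh1-HUMT libraries, 4330 to 4373 CPM in sh2-HUMT libraries and 5389 to 5624 CPM in shNC libraries, with 3 of 10 markers under 1 CPM. Most of that sum came from KRT7, KRT8 and KRT18, with means of 1440, 1488 and 1186 CPM in sh1-HUMT libraries. CDH1 went the other way, with means of 128, 127 and 102 CPM in sh1-HUMT, sh2-HUMT and shNC libraries. Fibroblast markers summed to 23.0 to 25.0, 25.9 to 28.1 and 18.2 to 22.7 CPM in the same groups, with 5 of 7 under 1 CPM. Endothelial markers summed to at most 2.64, 2.63 and 1.75 CPM, with 5 of 6 under 1 CPM. Leukocyte markers summed to 49.2 to 52.3 CPM in sh1-HUMT libraries, 52.7 to 53.4 CPM in sh2-HUMT libraries and 61.9 to 66.0 CPM in shNC libraries, of which CD68 averaged 36.8, 38.6 and 51.6 CPM in this order, and 3 of the 5 found were under 1 CPM. No marker was at 0 in all libraries. The part of these markers in the results was not tested.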

How the data were processed

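RNA from 9 PC9/GR libraries was sequenced, and the authors deposited 1 table of estimated counts per gene and library, in which 91.3% of genes had at least 1 fractional value (tolerance 0.005). Per the submitters' processing notes, RSEM 1.2.12, HISAT2 2.0.4, DESeq2 1.4.5 and Bowtie2 2.2.5 were used, with no roles given; the genome build and strand use are not given in the sources used here. Columns were matched to sample titles by arm and replicate number, and 15 other value columns were not used. Groups came from the titles.

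Counts were rounded and analysed in R 4.3.3 with edgeR 4.0.16: TMM normalization (factors 0.968 to 1.02), filterByExpr by group, and robust quasi-likelihood tests from 1 fit to all 9 libraries, with a mean for each group. Calls are Benjamini-Hochberg adjusted p under 0.05 over 18540 genes, with no minimum fold. Other settings were DESeq2 1.42.0, its size factors, upper-quartile scaling, no filter, a mean count of at least 10, a replicate block, only the 2 groups compared, a minimum fold of 2, and each library left out. A GC and transcript length correction (84.5% of tested genes had values) and the recount of shared calls smaller in sh1-HUMT were added after seeing the data. The steps were tested on simulated counts with changes in sh1-HUMT libraries only, larger than most of those called here. Changes shared by both hairpin groups were not simulated.

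Of 880 entries in 42 lists, 833 matched by symbol, 38 by gene ID and 9 not at all. The genes compared and the lists were chosen with earlier results of these data known. Named genes, except the lowest-count entries, had a mean of at least 5 CPM or came from the lists: the 12 highest and 12 lowest calls with groups that did not overlap, the 12 highest and lowest distinct genes, the 6 widest differences between hairpins for shared calls in each direction, up to 3 members a list by smallest adjusted p, and 11 fixed genes (HUMT, FOXK1, EGFR, MET, AXL, CDKN1A, MKI67, CDH1, VIM, HK2 and LDHA). The genes with a called difference between hairpins that this rule leaves out, the list members not shared and the largest calls not shared were named after their values were seen. Some genes are not reported here. Library totals limit the precision of low genes; intervals cover the spread between libraries.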

Additional observations from a re-analysis of the deposited data

Results flagged for a closer look

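KIFC2, a kinesin of the minus-end directed family, was lower than shNC in sh1-HUMT libraries and higher than shNC in sh2-HUMT libraries. It had 73.6, 68.7 and 68.1 CPM in sh1-HUMT libraries, 87.8, 85.4 and 86.5 CPM in sh2-HUMT libraries and 78.7, 77.9 and 74.4 CPM in shNC libraries, with no overlap between groups. What drew attention to it is that the 2 hairpin groups, as labelled, differ by a direct test. The difference was -0.30 on the log2 scale (sh1-HUMT minus sh2-HUMT, edgeR adjusted p = 0.00950). That difference was lost without sh2-HUMT replicate 1 (adjusted p = 0.0667), 2 (0.0510) or 3 (0.0557), and its range over all settings was -0.34 to -0.21.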

How the results depend on the processing

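The 5923 calls between sh1-HUMT and shNC stayed between 4776 and 5740 without each library in turn and were 361 with a minimum fold of 2; upper-quartile normalization gave 3276 higher and 2691 lower. Calls not shared ranged over 792 to 1690, and sh2-HUMT calls over 4881 to 6240. Of the 1269 calls not shared, the fewest stayed so without sh1-HUMT replicate 1 (605) and the most without sh2-HUMT replicate 2 (1035). The 14 distinct genes were 74 with DESeq2 (12 of the 14 among them), 2 with a minimum fold of 2 and 0 to 47 without single libraries. Calls between hairpins (53) were 366 with DESeq2, 35 with only the 2 groups compared and 1 to 155 without single libraries. The 28 shared calls smaller in sh1-HUMT libraries were 115 with DESeq2 (27 of the 28 among them) and 0 to 39 without single libraries. With GC content and transcript length corrected, which was added after seeing the data, 8 of the 14 and 22 of the 28 remained. Of the 1269 calls not shared, 532 stayed so under this correction, for which 84.5% of tested genes had values. The cause of these moves was not tested.

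The replicate block gave 4 distinct genes, 29 calls between hairpins and 20 shared calls smaller in sh1-HUMT libraries. Same-numbered libraries deviated with correlations of -0.02 to 0.05, and libraries with different numbers with -0.06 to 0.04. Whether the numbers pair samples was not tested.

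Among single genes, directions turned for values not called in the setting that turned them: AXL to -0.01 and CDKN1A to 0.01 with the GC and length correction, CDKN1A to between -0.07 and 0.0019 without single libraries (0.0019 without sh1-HUMT replicate 1), and EGFR to 0.01 with upper-quartile normalization and to between -0.03 and 0.02 without single libraries (0.02 without sh1-HUMT replicate 2 or shNC replicate 3). HUMT was not called in any setting (0.0049 to 0.11 without single libraries). No setting moved the median of all genes by over 0.1. Precision is limited by depth and by the spread between libraries, which were not separated. For 213 calls not shared, the interval of the difference between hairpins reached past 1.5-fold or was not usable. EGFR and MET were called with the GC and length correction (-0.12 and -0.10).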

Other observations

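Further lists are given beside 15.7% higher and 16.3% lower over all genes tested; shares near these are no result about a list. Of 24 lysosome genes, 8 were lower (33.3%) and 2 higher (8.33%) in sh1-HUMT libraries, against 6 lower and 5 higher in sh2-HUMT libraries, and CTSB, the cathepsin B protease, fell by 0.54 in sh1-HUMT libraries (edgeR adjusted p = 9.1e-08). CTSH and NPC2 were calls not shared, CTSH being lost without shNC replicate 2 (adjusted p = 0.0596). The GC and length correction gave 5 lysosome genes lower and 4 higher, and the number higher was 1 without sh1-HUMT replicate 3 or shNC replicate 2. Of 20 autophagy genes, 5 were higher and 7 lower in sh1-HUMT libraries, against 4 higher and 7 lower in sh2-HUMT libraries. The cargo receptor SQSTM1 had 1039, 1105 and 1021 CPM in sh1-HUMT libraries, 1039, 1049 and 1071 CPM in sh2-HUMT libraries and 1425, 1417 and 1392 CPM in shNC libraries, and MAP1LC3B, which marks autophagosomes, fell by 0.77. ATG2A, a lipid transfer protein of autophagosome growth, rose by 0.62. Of 17 BCL2 family genes, 7 were lower and 3 higher in sh1-HUMT libraries, with PMAIP1, a BH3 protein, falling by 0.78 and the survival proteins MCL1 and BCL2L1 by 0.22 and 0.16; without shNC replicate 1 the number higher was 1.

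Of 17 circadian clock genes, 6 were lower (35.3%) and 3 higher (17.6%) in sh1-HUMT libraries, against 5 lower and 3 higher in sh2-HUMT libraries. The repressors BHLHE40 and NFIL3 fell by 0.53 and 0.78, and PER2, a period protein, rose by 0.48, with 57.0, 54.2 and 58.9 CPM in sh1-HUMT libraries, 52.9, 55.2 and 54.7 CPM in sh2-HUMT libraries and 41.6, 38.7 and 41.5 CPM in shNC libraries. The number higher was 1 without sh1-HUMT replicate 1 or 2 or shNC replicate 1 or 3, with DESeq2, with the replicate block, with low-count genes kept and with the GC and length correction, and the number lower was 3 without sh1-HUMT replicate 1 or shNC replicate 3. Of 24 interferon-stimulated genes, 5 were higher (20.8%), 1 was lower (4.17%) and 18 were not called in sh1-HUMT libraries, against 6 higher and 1 lower in sh2-HUMT libraries, with STAT2, a transducer of interferon signals, rising by 0.38 and OAS1 and OAS3, sensors of double-stranded RNA, by 0.31 and 0.32. Of 14 host and nuclear noncoding RNAs, 8 were lower and 3 higher in sh1-HUMT libraries, and SNHG17 fell by 0.61 in sh1-HUMT and by 0.63 in sh2-HUMT libraries.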
